A study of Mus musculus with 6 samples.

Results

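The proteasome genes described here were the genes on the array whose symbol begins Psma, Psmb, Psmc, Psmd, Psme, Psmf or Psmg followed by a digit, with the immunoproteasome subunits Psmb8, Psmb9 and Psmb10 left out. The rule found 99 probe sets with 1 gene symbol, for 46 of the 18193 genes measured, and each gene was read from its brightest probe set. One group of Affymetrix mouse arrays held wild-type mouse embryonic fibroblasts, connective tissue cells cultured from mid-gestation embryos. In the other, the fibroblasts were labelled knockout for c-abl, the gene Abl1, and for arg, the gene Abl2, the pair of Abl tyrosine kinases. Each group had 3 arrays, and both came from pooled male and female C57BL/6 embryos at 14 days of gestation, grown in medium with serum and with no other agent named. The labels state no Cre, promoter or clone, and separate cultures or embryos behind the 3 arrays of 1 group are not mentioned, so p-values here measure the spread between arrays only, and that spread can be technical. The stated aim was to learn what Abl kinases do for gene expression.

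The proteasome degrades proteins tagged with ubiquitin. Its 20S core is a barrel of outer alpha rings, which gate the entry, and inner beta rings, which hold the proteolytic sites. The 19S particle caps the core: its base unfolds substrates with a ring of ATPases, and its lid holds a deubiquitinase that removes the ubiquitin chain. Dedicated chaperones assemble core and base, and other caps and an inhibitor can bind the core. Cells raise proteasome output largely by transcribing the subunit genes together through the factor Nfe2l1 and its small Maf partners. Abl kinases have been reported to bind and phosphorylate the alpha ring subunit Psma7.

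The targeted genes were not clearly lower in the arrays labelled knockout. Abl1 had signals of 182 to 189.9 in wild type, against 161 to 178 in the arrays labelled knockout (log2 difference -0.11, limma adjusted p = 0.0933), and Abl2 of 245 to 262 and 243 to 267 (-0.01, adjusted p = 0.874). Probes that lie beyond the removed exons cannot check a deletion, and every direction below is that of the arrays labelled knockout. Among 10 fibroblast markers the summed signal was 11796 to 12469 in wild type, against 16533 to 17498 in the arrays labelled knockout. That sum hides large opposite changes. Col1a2 and Col3a1 had means of 2284 and 1934 in wild type, but were near the floor at 9.71 and 14.9 in the arrays labelled knockout. Pdgfra was near the floor in wild type at 9.99, against 1789 in the arrays labelled knockout. Thy1 and Lum were near the floor in both. Summed signals of 7 leukocyte and macrophage markers (75.8 to 78.4 against 67.7 to 72.6), 5 epithelial markers (73.4 to 90.3 against 37.6 to 44.0) and 4 endothelial markers (31.5 to 38.8 against 29.9 to 34.4) were low in both groups, and Ptprc, which defines leukocytes, was at 2.59 and 2.64. For the beta-actin control, the 3' over 5' log2 ratio, which reflects RNA integrity, was 0.470 ± 0.0300 in wild type, against 0.363 ± 0.0153 in the arrays labelled knockout (both SD, n = 3; two-sided exact permutation p = 0.10, the smallest that 3 against 3 arrays allow). The same ratio of the Gapdh control was -0.153 ± 0.0404 against -0.170 ± 0.0400 (two-sided exact permutation p = 0.70). The part of these differences in the results was not tested.

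Promoter sequence is shown first for 8 of these genes, because genes of the same complex rose and fell while sharing a promoter motif. The 200 bases before the start were read from the RefSeq promoter table of mouse assembly GRCm38.p6, 5′ to 3′ on the strand of the gene, and capitals mark the ETS letters CCGGAAG on either strand. Psmd6, Psmd11, Psmd12 and Psmc6 rose, and Psmg1 and Psmd2 fell, with the ETS letters. Psmg3 and Psmg4, with the largest falls among the assembly chaperones, held none of the motifs searched.
Psmd6 (chr14:14120946-14121145, minus strand): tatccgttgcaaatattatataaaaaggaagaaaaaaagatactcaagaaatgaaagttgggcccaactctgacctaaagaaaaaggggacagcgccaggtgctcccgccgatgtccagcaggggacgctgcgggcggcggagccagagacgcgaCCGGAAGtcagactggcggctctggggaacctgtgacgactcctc
Psmd11 (chr11:80428415-80428614, plus strand): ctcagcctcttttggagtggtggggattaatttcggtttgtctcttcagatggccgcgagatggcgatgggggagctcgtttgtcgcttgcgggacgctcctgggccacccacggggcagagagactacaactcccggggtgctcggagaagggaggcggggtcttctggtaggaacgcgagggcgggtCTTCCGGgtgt
Psmd12 (chr11:107479328-107479527, plus strand): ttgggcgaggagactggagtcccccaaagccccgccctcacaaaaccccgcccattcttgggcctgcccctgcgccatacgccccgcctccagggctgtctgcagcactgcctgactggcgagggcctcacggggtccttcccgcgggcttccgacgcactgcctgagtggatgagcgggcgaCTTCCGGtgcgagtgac
Psmc6 (chr14:45329624-45329823, plus strand): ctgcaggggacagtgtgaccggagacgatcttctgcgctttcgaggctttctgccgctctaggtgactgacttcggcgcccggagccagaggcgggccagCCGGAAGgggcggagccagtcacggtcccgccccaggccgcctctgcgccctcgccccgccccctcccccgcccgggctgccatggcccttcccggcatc
Psmg1 (chr16:95990961-95991160, minus strand): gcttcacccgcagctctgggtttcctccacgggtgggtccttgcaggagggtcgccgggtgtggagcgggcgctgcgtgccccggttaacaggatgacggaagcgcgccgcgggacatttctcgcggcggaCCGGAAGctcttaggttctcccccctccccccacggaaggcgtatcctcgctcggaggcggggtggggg
Psmd2 (chr16:20651452-20651651, plus strand): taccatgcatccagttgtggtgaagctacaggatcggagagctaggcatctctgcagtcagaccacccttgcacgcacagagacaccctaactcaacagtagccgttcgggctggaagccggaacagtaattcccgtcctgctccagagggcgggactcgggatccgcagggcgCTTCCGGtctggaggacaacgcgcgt
Psmg3 (chr5:139826895-139827094, minus strand): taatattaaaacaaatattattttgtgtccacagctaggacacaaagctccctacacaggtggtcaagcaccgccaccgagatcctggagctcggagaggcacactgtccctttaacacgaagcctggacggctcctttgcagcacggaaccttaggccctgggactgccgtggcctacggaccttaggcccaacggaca
Psmg4 (chr13:34162764-34162963, plus strand): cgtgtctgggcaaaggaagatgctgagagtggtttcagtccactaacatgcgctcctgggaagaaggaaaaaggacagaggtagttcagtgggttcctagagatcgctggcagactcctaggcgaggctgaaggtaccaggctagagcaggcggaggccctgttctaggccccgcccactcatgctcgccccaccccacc

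Of 46 proteasome genes, 38 had an entry in that table, and in each the 250 bases before the start were searched on both strands. The ETS letters CCGGAAG, a binding motif of ETS family transcription factors, were in 12 of 38 (31.6%), against 7.1% of 27025 promoters of the same length. Of these 12 genes 6 rose and 6 fell. In 10 of the 12 (83.3%) the match lay within 100 bases of the start, against 66.5% of the 1906 promoters with these letters. These backgrounds, and those of the motifs below, take in genes whatever their signal, and shares over bright genes were not taken. The CCAAT box of the factor NF-Y was in 14 of 38 (36.8%, against 34.5% of all promoters), among them Psma1, Psma2, Psma3, Psma6 and Psma7 of the alpha ring. Of the 14 genes with a CCAAT box, 4 rose (Psma2, Psmb3, Psmd4 and Psmd14) and 9 fell. The core of the antioxidant response element, TGACNNNGC, to which Nfe2l1 and Nfe2l2 bind, was in 5 of 38 (13.2%, against 10.1%): Psmb5, Psmb6, Psmc6, Psmd9 and Psmd12. Psmb5, Psmc6 and Psmd12 rose, and Psmb6 and Psmd9 fell. The E-box CACGTG was in Psma4, Psmd9 and Psme3 (7.9%, against 6.0%). Of the 41 matches in these genes, 0 overlapped a match of another motif. A match describes the letters and not binding.

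Proteasome genes differed between the groups in both directions and mostly by small amounts. With a limma adjusted p under 0.05, taken over all genes, 16 of the 46 rose and 23 fell, together 84.8%. The background was high: 59.8% of all genes tested passed, with 24.3% higher and 35.5% lower, and among the 6635 genes with a mean log2 value above 7, to which 44 of the 46 belong, 85.9% passed, 38.5% higher and 47.4% lower. Only 5 of 46 (10.9%) passed with at least 2-fold, against 15.9% of all genes and 24.3% of those above 7. The share called was therefore close to that of other bright genes, and the share past 2-fold was below it. The median difference, on log2(signal + 16) and as knockout minus wild type, was -0.10, beside -0.03 for all genes and -0.08 for the bright ones. The interquartile range of the differences was 0.62, against 1.06 for bright genes, 0.31 for the 9 genes of the COP9 signalosome, a complex built like the lid, and 0.39 for the 8 genes of the chaperonin CCT. Replicate arrays were close: the median coefficient of variation of the 44 bright genes was 2.97% in wild type, against 2.73% in the arrays labelled knockout. Groups did not overlap in 41 of 46 genes (89.1%), against 64.7% of all genes and 88.3% of the bright ones.

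**Figure D1:**
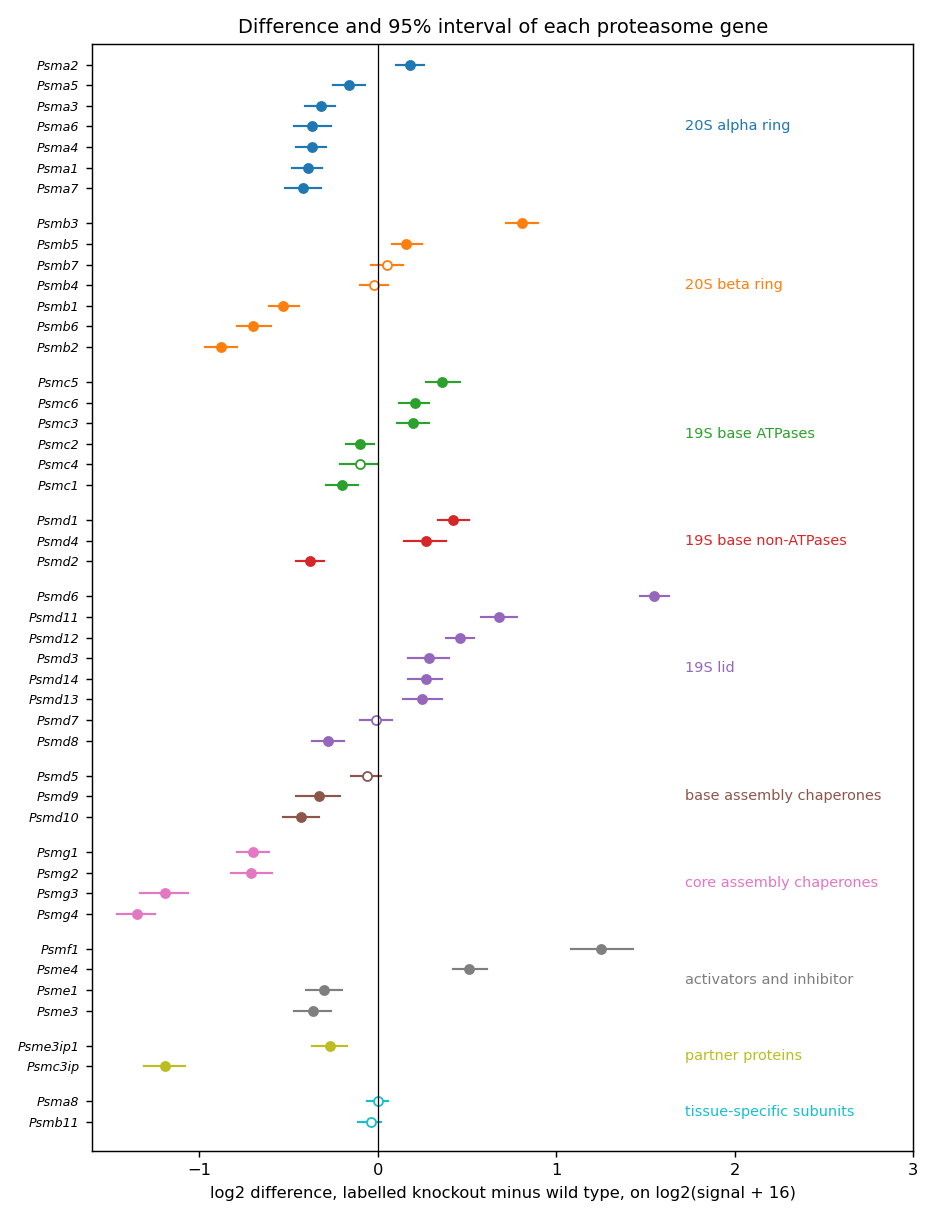
Difference on log2(signal + 16), knockout minus wild type, of the 46 proteasome genes with the 95% interval from limma, grouped by role and filled where the adjusted p was under 0.05. The 4 core assembly chaperones lie between -1.35 and -0.70, and 6 of 8 lid genes lie above 0, up to 1.55 for Psmd6.

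Core and regulatory particle were split. Of the 17 genes of the 19S particle that the naming rule holds, 11 rose and 4 fell, with a median difference of 0.25. The lid subunit Sem1, left out by its name, fell (-0.71, limma adjusted p = 1.60e-08). Of the 14 genes of the 20S core, 3 rose and 9 fell, with a median of -0.35. The gap between these medians was 0.60 on the log2 scale, and it was 0.56 to 0.61 under other offsets and without any 1 array. It was 0.36 with chromosomes centred on their bright genes, 0.41 with all probe sets of a gene averaged and 0.16 when probe sets with an x, s or a suffix were dropped, where 5 genes had no probe set left and others were read from dimmer ones. Signs on their own depended on the scaling: against poly-A spike controls the medians were 0.76 for 19S, 0.19 for 20S and 0.13 for all genes, and against hybridization spike controls they were -0.01, -0.62 and -0.13. The median of all genes includes dim ones, which such a scaling moves less, so it is no like reference for these bright subunits. COP9 signalosome and CCT genes had medians of 0.39 and 0.37 with poly-A spikes, and of -0.41 and -0.44 with hybridization spikes. The mean log2 signal of the poly-A controls itself differed between the groups by -0.54 and that of the hybridization controls by 0.28 (two-sided exact permutation p = 0.10 each). A spike scaling moves bright genes of an array alike, so it leaves the gap between core and cap nearly as it was by construction.

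**Figure D2:**
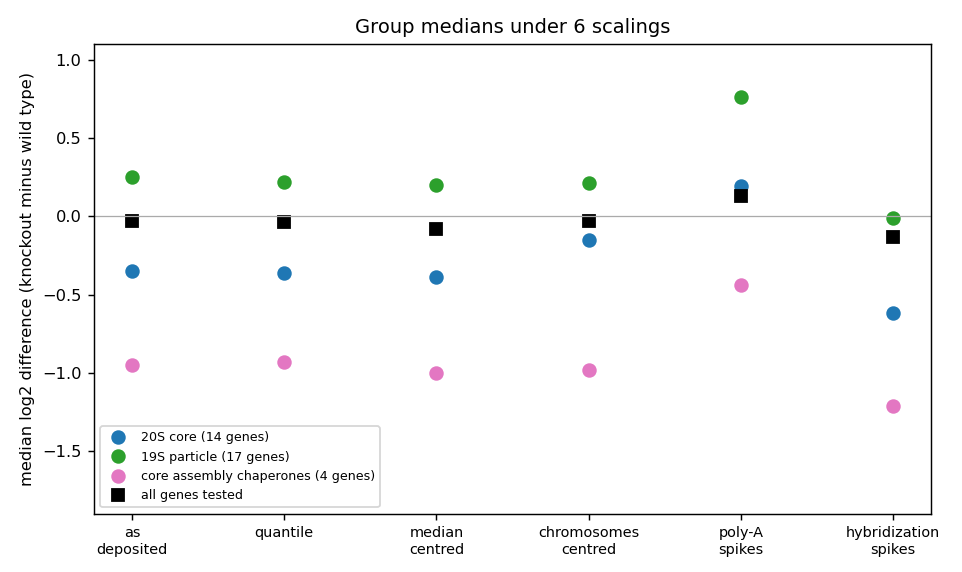
Median log2 difference (knockout minus wild type) of the 14 genes of the 20S core, the 17 of the 19S particle, the 4 core assembly chaperones and all 18193 genes under 6 scalings of the arrays. The median of all genes includes dim genes, which a spike scaling moves less than these bright subunits. The 19S median lies above the 20S median under each, by 0.36 with chromosomes centred and by 0.57 to 0.61 under the other 5; the spike scalings move all bright genes of an array together and so could hardly change this gap.

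In the alpha ring 6 of 7 genes fell and 1 rose. Among the 6 that fell, 5 lay between -0.42 and -0.32, and Psma5 fell less, by 0.16. Psma7, the subunit reported as an Abl substrate, had signals of 1156, 1121 and 1040 in wild type, against 822, 818 and 825 in the arrays labelled knockout. All 3 wild-type values were higher, a log2 difference of -0.42 ± 0.04 (SE; limma adjusted p = 2.63e-06), and a second bright probe set of Psma7 gave -0.31. Psma1 (-0.39), Psma4 (-0.37), Psma6 (-0.37) and Psma3 (-0.32) fell too. Psma2 was the exception: its signals of 2385, 2296 and 2324 in wild type were all below the 2690, 2585 and 2668 of the arrays labelled knockout (0.18 ± 0.04, limma adjusted p = 0.00104). Under poly-A spike scaling all 7 were above 0, from 0.11 for Psma7 to 0.72 for Psma2, and under hybridization spike scaling all 7 were below 0. With chromosomes centred Psma7 was at -0.47 and Psma2 at -0.14, below Psma3 at -0.09. With x, s and a suffixes dropped, Psma7 was at -0.31, Psma1 at -0.39 and Psma3 at 0.34.

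The beta ring was divided, with 2 genes that rose, 3 that fell and 2 that did not pass, and an interquartile range of 0.72 against 0.14 in the alpha ring. Psmb3, a subunit without proteolytic activity, rose from 1069, 1015 and 1066 to 1801, 1815 and 1934, a difference of 0.81 ± 0.04 (SE; limma adjusted p = 3.01e-09) and 1.75-fold. Its second bright probe set gave 0.54. Psmb2, also without proteolytic activity, fell from 1348, 1320 and 1360 to 706, 703 and 757 (-0.88 ± 0.04, adjusted p = 1.10e-09). Neither gene had overlapping groups. Psmb1 fell by 0.53, read from a probe set ending in a; from a dim probe set without that suffix, with mean signals of 52.6 and 49.7, it was at -0.06 (adjusted p = 0.481). Psmb4 was at -0.02 (95% interval -0.10 to 0.06) from its brightest probe set and at -0.33 from a second one.

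The 3 proteolytic subunits did not move together. Psmb6, the caspase-like subunit, fell from 1132, 1077 and 1181 to 685, 680.4 and 706, a difference of -0.70 ± 0.04 (SE; limma adjusted p = 1.50e-08), with all wild-type values higher. Psmb5, the chymotrypsin-like subunit and target of proteasome inhibitor drugs, rose from 1447, 1448 and 1401 to 1584, 1558 and 1674 (0.16 ± 0.04, adjusted p = 0.00342). Psmb7, the trypsin-like subunit, had 618, 596 and 621 in wild type, against 637, 656 and 609.6 in the arrays labelled knockout. Its groups overlapped, and the interval of the difference ran from -0.04 to 0.14. Under poly-A spike scaling Psmb6 was at -0.17 (adjusted p = 0.116), Psmb5 at 0.70 and Psmb7 at 0.58, and under hybridization spike scaling at -0.97, -0.11 and -0.22; such a scaling moves these bright genes alike and cannot change their order. With chromosomes centred they were at -0.83, -0.30 and -0.00. Interferon-inducible counterparts can replace these subunits: Psmb9, which replaces Psmb6, fell from 323 ± 30.1 to 13.9 ± 4.38 and Psmb10, which replaces Psmb7, from 375 ± 25.2 to 94.7 ± 4.31 (SD, n = 3 each), while Psmb8, which replaces Psmb5, was near the floor at 8.25 and 12.7.

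**Figure D3:**
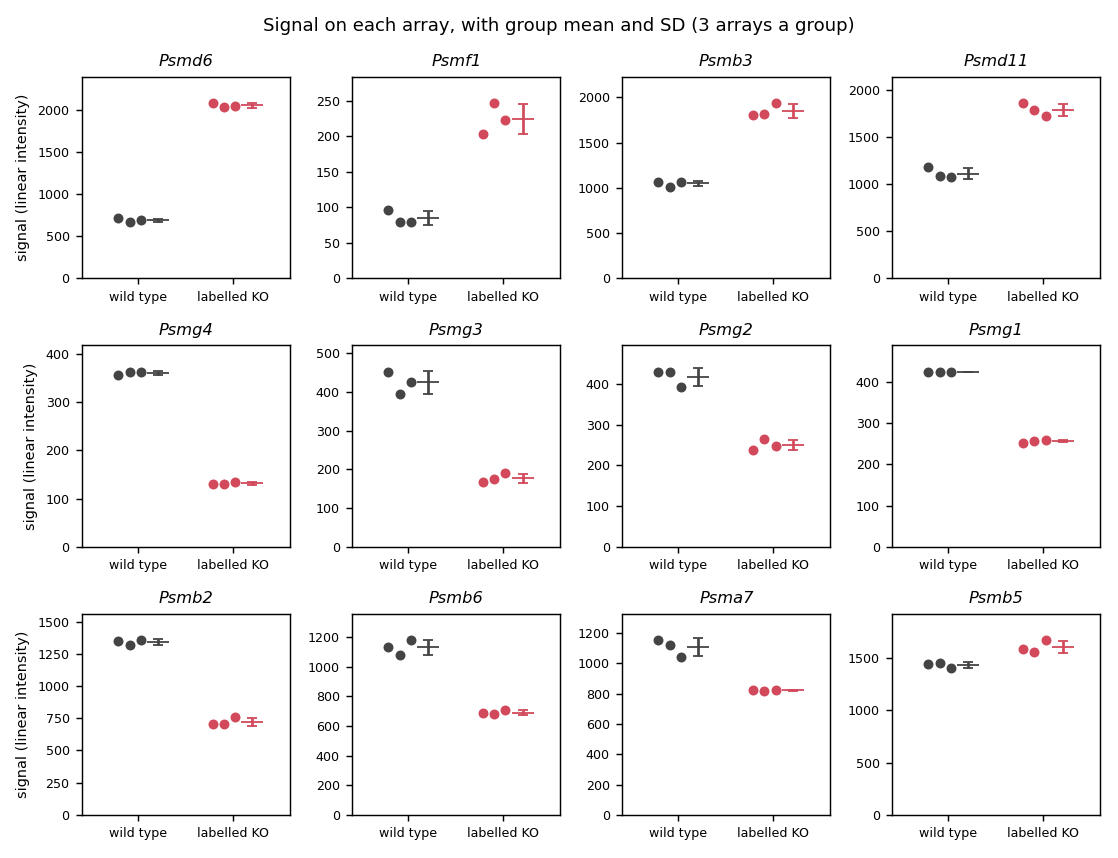
Signal (linear intensity) of 12 proteasome genes on each array, with points for the 3 arrays of a group and a dash and bar for mean and SD. In none of the 12 do the groups overlap: Psmd6 goes from 673 to 710.2 in wild type to 2026 to 2074 in the arrays labelled knockout, and Psmg4 from 356 to 364 down to 129.7 to 135.

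In the ATPase ring of the 19S base, read from the brightest probe set of each gene, differences were small. Of its 6 genes 3 rose, 2 fell and 1 did not pass, all within -0.20 and 0.36, and the median was 0.05. Psmc5 was the highest, with 876, 848 and 789.9 in wild type, against 1074, 1095 and 1076 in the arrays labelled knockout (0.36 ± 0.04 SE, limma adjusted p = 9.72e-06). Psmc1 was the lowest, with 696, 670.0 and 649.7 against 579, 576 and 590.0 (-0.20 ± 0.04, adjusted p = 7.57e-04). Both had groups that did not overlap. Psmc6 (0.21) and Psmc3 (0.20) rose. Both other bright probe sets of Psmc6 gave more, 0.58 and 0.76, its average over probe sets was 0.52, and with chromosomes centred it was at -0.25. Psmc2 (-0.10, adjusted p = 0.0347) fell, and its call was lost without any 1 of 5 arrays, at adjusted p of 0.0560 to 0.115. Psmc4 was at -0.10 (adjusted p = 0.0904), and its second bright probe set was at -0.60. Of the other base subunits, Psmd1, a large scaffold, rose from 819, 795 and 834 to 1065, 1122 and 1113 (0.42 ± 0.04), and Psmd4, a ubiquitin receptor, rose by 0.27. Psmd2, the other large scaffold, fell from 1850, 1783 and 1834 to 1362, 1419 and 1403 (-0.38 ± 0.04, limma adjusted p = 1.31e-06). The opposite signs of these scaffolds depended on the reference: Psmd1 and Psmd2 were at 0.96 and 0.15 under poly-A spike scaling, and at 0.57 and 0.04 (limma adjusted p = 0.382) with chromosomes centred.

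In the lid 6 of the 8 genes under the naming rule rose, 1 fell and 1 did not pass, with a median of 0.28. The lid subunit Sem1, outside the rule, fell (-0.71). Psmd6, a scaffold subunit of the lid, had the largest rise of the 46 genes. Its signals were 710.2, 673 and 688 in wild type, against 2074, 2026 and 2047 in the arrays labelled knockout. Every array labelled knockout was far above every wild-type array, a log2 difference of 1.55 ± 0.04 (SE; limma adjusted p = 3.13e-12) and 2.92-fold, and a dimmer second probe set gave 1.26. Psmd11, the lid subunit that clamps lid and core together, rose from 1180, 1089 and 1074 to 1862, 1787 and 1730 (0.68 ± 0.05, adjusted p = 4.14e-08). Its 4 bright probe sets ran from 0.68 to 0.96. Psmd12, another lid scaffold, rose from 848, 866 and 865 to 1158, 1215 and 1201 (0.46 ± 0.04, adjusted p = 2.07e-07). Psmd3 (0.29) and Psmd13 (0.25) rose as well.

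Psmd14, the lid deubiquitinase, had 1429, 1321 and 1300 in wild type, against 1691, 1601 and 1583 in the arrays labelled knockout (0.27 ± 0.05 SE, limma adjusted p = 2.32e-04), with no overlap. Psmd7, the partner of Psmd14 in the lid, was at -0.01 (95% interval -0.10 to 0.08), with overlapping groups. Psmd8 was the 1 gene of these 8 to fall, from 981, 981 and 995 to 835, 770.2 and 826 (-0.28 ± 0.04, adjusted p = 6.40e-05). Under hybridization spike scaling Psmd3, Psmd13 and Psmd14 were at 0.01, -0.01 and -0.01, whereas Psmd6, Psmd11 and Psmd12 stayed above 0 at 1.27, 0.40 and 0.19. With x, s and a suffixes dropped, Psmd13 was read from a dim probe set at -0.30 (adjusted p = 0.0136).

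All 4 chaperones that assemble the core fell. Psmg1 and Psmg2 form one dimer and Psmg3 and Psmg4 another, and both dimers guide the building of the alpha ring. Psmg4 had signals of 356, 364 and 364 in wild type, against 129.7, 129.8 and 135 in the arrays labelled knockout, a difference of -1.35 ± 0.05 (SE; limma adjusted p = 6.85e-11), 2.56-fold lower. Psmg3 had 453, 395 and 427 against 167, 175 and 189.6 (-1.19 ± 0.06, adjusted p = 2.74e-09), 2.29-fold lower. Both genes of this dimer were thus more than 2-fold lower, with no overlap between the groups. Psmg2 had 429.9, 430.1 and 392 against 238, 264 and 247 (-0.71 ± 0.05, adjusted p = 1.18e-07). Psmg1 had 426, 426 and 425 against 253, 258 and 259 (-0.70 ± 0.04, adjusted p = 1.00e-08). The median of the 4 was -0.95, and it was -0.44 with poly-A spikes and -1.21 with hybridization spikes. With poly-A scaling Psmg1 (-0.18, adjusted p = 0.0765) and Psmg2 (-0.19, adjusted p = 0.0622) no longer passed. With all probe sets averaged, dim ones included, Psmg2, Psmg3 and Psmg4 were at -0.40, -0.44 and -0.71. The core maturation factor Pomp, which acts with these chaperones, rose by 0.32.

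The chaperones of the base were lower or near 0. Psmd10, also known as gankyrin, fell from 382, 379 and 403 to 279, 280.1 and 293 (-0.43 ± 0.05 SE, limma adjusted p = 3.04e-06). Psmd9 fell by 0.33. Psmd5 had 457, 464 and 460.0 against 443, 433 and 442, a difference of -0.06 (95% interval -0.15 to 0.02) that did not pass.

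Alternative caps and the inhibitor differed one by one. Psme4, the PA200 activator of nuclear proteasomes, rose from 519, 552 and 532 to 787, 788 and 731 (0.51 ± 0.04 SE, limma adjusted p = 4.19e-07), and its 3 bright probe sets ran from 0.47 to 0.62. Psme1, a subunit of the interferon-inducible PA28 cap, fell by 0.30. Psme3, the nuclear PA28 gamma cap, had 247, 235 and 249 against 188, 183 and 186 (-0.36 ± 0.05, adjusted p = 2.25e-05), but a dimmer probe set went the other way (0.28). Psmf1, which encodes the core-binding protein PI31, had 95.6, 79.3 and 79.0 in wild type, against 203, 246 and 223 in the arrays labelled knockout. That is a difference of 1.25 ± 0.08 (adjusted p = 2.92e-08) with no overlap. The 4 probe sets of Psmf1 disagreed: 3 gave 1.22 to 1.90 and 1 gave -0.03, with mean signals of 138 and 135 (limma adjusted p = 0.759 over all probe sets).

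The rule also took in 4 genes that are not parts of the general proteasome. Psmc3ip, a cofactor of meiotic recombination named for binding an ATPase of the base, fell from 305, 280.2 and 296 to 119, 116 and 123 (-1.19 ± 0.05 SE, limma adjusted p = 6.97e-10). Psme3ip1, a partner of PA28 gamma, fell by 0.27. Psma8 of the testis and Psmb11 of the thymus were near the floor on every array, with signals of 2.99 to 4.25 and 5.11 to 7.02. Without these 4 genes, 16 of 42 rose and 21 fell, with a median of -0.10.

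Bright probe sets of the same gene usually agreed in sign, though not always in size or call. Of 17 genes with more than 1 probe set whose higher group mean was at least 64, 15 had the same sign in all of them, the exceptions being Psme3 and Psmf1. Calls of 10 genes kept their direction and stayed past 0.05 under all alternatives that could be run on them: Psmd6, Psmb3, Psmd11, Psme4, Psmd12 and Psmd1 among those that rose, and Psmg4, Psmg3, Psmc3ip and Psmb2 among those that fell.

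Position on the chromosome was compared because the median difference of bright genes varied from chromosome to chromosome. Of 39 called genes, 29 had the sign of the median of the bright genes on their chromosome. The same share over all called genes was not taken. A median is the middle of its own genes, so many genes share its sign whatever their role. The count is therefore not a result about proteasome genes. Chromosome 11 held 9 of the 46 genes, of which 6 rose (Psmb3, Psmd11, Psme4, Psmd12, Psmc5 and Psmd3) and 3 fell (Psmb6, Psme3 and Psmc3ip), where 591 bright genes had a median of 0.14. Psmb2 is on chromosome 4, whose 365 bright genes had a median of -0.72. Relative to that median Psmb2 was at -0.16. Psmd6 is on chromosome 14, with a median of 0.47, and stood 1.08 above it, while Psmb5 and Psme1 on the same chromosome stood at -0.30 and -0.76 relative to it. The 4 core assembly chaperones lie on chromosomes 16, 18, 5 and 13 and stood at -0.30, -0.96, -1.06 and -1.69 relative to their chromosomes. Across the 46 genes, which share the same 6 arrays, the Pearson correlation between the difference of a gene and the median of its chromosome was 0.31. In all, 12 of the 39 called genes stood at least 0.5 from that median, also without a share over all genes to set beside it. The part of these chromosome-wide differences in the results was not tested.

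**Figure D4:**
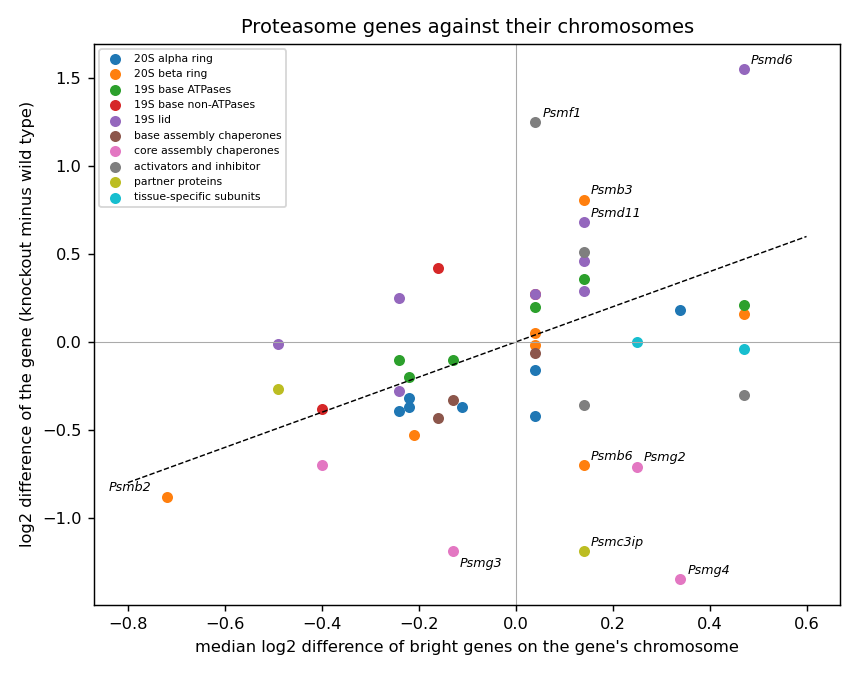
Log2 difference of each of the 46 proteasome genes (vertical axis, knockout minus wild type) against the median log2 difference of the genes on its chromosome with a mean log2 value above 7 (horizontal axis), with the dashed line at equality. Psmb2 lies near the line, whereas Psmd6 and Psmf1 lie 1.08 and 1.21 above it and Psmg4 lies below it at -1.69.

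Genes that share a promoter region with a proteasome gene did not always move with it. Of the 38 genes with a promoter entry, 6 had the RefSeq start of another measured gene within 1000 bases, on the opposite strand and pointing away. Psmc5 (0.36) and its neighbour Ftsj3 (0.84) were both higher, and Psme3ip1 (-0.27) and Rspry1 (-0.55) both lower. Psma2 was at 0.18 and its neighbour Mrpl32 at -0.90, and Psmd13 at 0.25 with Sirt3 at -0.75. Psmd10 was at -0.43 and Atg4a at 0.34, while Psma7 was at -0.42 and Ss18l1 at 0.05 (limma adjusted p = 0.623).

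Of 7 measured regulators of the subunit genes, 5 rose, 0 fell and 2 (Mafk and Keap1) did not pass in the limma fit at an adjusted p under 0.05, with a median of 0.74. Of all genes 24.3% rose, and of bright genes 38.5%. Nfe2l1, the main activator of subunit genes, rose from 634 ± 25.6 to 1009 ± 27.6 (SD, n = 3 each; 0.66, limma adjusted p = 2.53e-08) and its relative Nfe2l2 from 556 ± 11.9 to 938 ± 54.6. Their partners Maff (1.45) and Mafg (1.30) and Ngly1 (1.39), the deglycosylase that activates the Nfe2l1 protein, rose by over 2-fold. Mafk, another small Maf factor, was at 0.14 (limma adjusted p = 0.0816). Keap1, which holds back Nfe2l2, was at 0.00 (95% interval -0.13 to 0.13). The regulator median stayed above 0 with poly-A spikes (1.27) and with hybridization spikes (0.46). Under the same scalings the median of the 19S genes was 0.76 and -0.01, and that of the 20S genes 0.19 and -0.62.

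Bound factors outside the Psm names mostly fell. Of 11 measured, 9 fell and 2 rose, and their median of -0.45 became 0.05 when poly-A spikes set the scale. The background for this list and the next was 24.3% higher and 35.5% lower of all genes, and 38.5% and 47.4% of bright genes. Pithd1, a proteasome-binding protein, fell by 1.48, Ecpas, an adaptor that holds core and cap together, by 0.81, and Txnl1, a thioredoxin-like protein of the 19S particle, by 0.76. Pithd1 and Ecpas are on chromosome 4, whose bright genes had a median of -0.72. The lid subunit Sem1 (-0.71) and the deubiquitinases Uchl5 (-0.74) and Usp14 (-0.42) fell, and Zfand5, an activator of the proteasome, rose by 1.11. Among 10 shuttle factors and p97 genes, 5 rose and 3 fell, and their median of 0.10 became -0.18 when hybridization spikes set the scale. Faf1 (-1.46) and Rad23b (-1.08) fell, both on chromosome 4, and Faf2 (0.86) and Ubqln1 (0.76), both on chromosome 13, rose. The p97 gene Vcp, also on chromosome 4, was at 0.08 (95% interval -0.01 to 0.16). Of the ubiquitin and E1 genes listed, only the E1 gene Uba6 was measured, and it fell by 0.40.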

How the data were processed

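The data were 6 Affymetrix arrays, 3 per group, with groups taken from the sample titles. Biotin-labelled material was made from 6 µg of RNA, per the labels' protocols. The deposited values are linear intensities, 1 per probe set and array, made by the authors with MAS5 per the submitters' processing notes; which version and what scaling were used is not stated. Median signals were 13.4 to 14.7 per array; the number of arrays limits the precision.

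Signals became log2(signal + 16). Of 45101 probe sets, 64 controls, 932 with several symbols and 9160 unnamed here were left out; 34741 of the remaining 34945 matched RefSeq (GRCm38.p6) by Entrez number. The brightest probe set represented each of 18193 genes, with no filter on low values. Knockout and wild type were compared with limma 3.58.1 in R 4.3.3 (eBayes with trend, two-sided, Benjamini-Hochberg over all genes), and rose or fell means an adjusted p under 0.05. The fit was also run on simulated data with independent noise and few changed genes, which cannot check scaling or array-wide differences here. Every array value was given for the 6 highest and 6 lowest differences with no overlap, the extremes of each structural group, Psma7, Psmb5, Psmb6, Psmb7 and Psmd14; from each list outside the rule, the largest called differences were named. Members and lists were chosen with earlier results of these data known, as were the motifs, and Psmd4, Keap1, Pomp, Usp14 and other genes beyond the rule were named after their values were seen. Alternatives covered offset, scaling, position, dim genes, probe set choice, spread model, replicate block and leaving out each array. Figures were drawn with matplotlib 3.10.9.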

Additional observations from a re-analysis of the deposited data

How the results depend on the processing

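The counts of 10873 genes and 39 proteasome genes called stayed within 1.5 times under all alternatives run, and without any 1 array 38 to 39 proteasome genes passed. Their split did not hold: 29 rose and 4 fell under poly-A spike scaling, and 7 rose and 29 fell under hybridization spike scaling. The share of all calls that were rises was 40.6%, against 29.4% with arrays centred on the median, 79.9% with poly-A spikes and 21.2% with hybridization spikes. The median difference of -0.10 was -0.12 with offset 1 and with quantile normalization, -0.15 with arrays centred on the median, 0.35 with poly-A spikes, -0.38 with hybridization spikes, -0.05 with chromosomes centred, -0.13 with dim genes left out and -0.03 with probe sets averaged. Without 1 array it was -0.12 to -0.08. The cause was not tested, except that a spike reference by construction moves the bright genes of an array together and dim ones less.

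Replicate numbers could not be taken as pairs: deviations of same-numbered arrays correlated at 0.068, 0.251 and 0.290 across bright genes, although each array correlated best with its own number. With the replicate number as a block 10944 genes and 40 proteasome genes passed, 16 higher and 24 lower, Psmc4 being added (-0.10, adjusted p = 0.0343).

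Directions of single genes reversed as follows. Under poly-A spike scaling Psma1 was at 0.14, Psma3 at 0.21, Psma4 at 0.16, Psma5 at 0.37, Psma6 at 0.17, Psma7 at 0.11, Psma8 at 0.10, Psmb1 at 0.01, Psmb4 at 0.52, Psmb11 at 0.10, Psmc1 at 0.33, Psmc2 at 0.43, Psmc4 at 0.42, Psmd2 at 0.15, Psmd5 at 0.46, Psmd7 at 0.51, Psmd8 at 0.25, Psmd9 at 0.17, Psmd10 at 0.09, Psme1 at 0.24, Psme3 at 0.14 and Psme3ip1 at 0.25. Under hybridization spike scaling Psma2 was at -0.10, Psmb5 at -0.11, Psmb7 at -0.22, Psmc3 at -0.08, Psmc6 at -0.07, and Psmd4, Psmd13 and Psmd14 at -0.01. With chromosomes centred Psma2 was at -0.14, Psmb5 at -0.30, Psmb7 at -0.00, Psmc1 and Psmc2 at 0.03, Psmc4 at 0.15, Psmc6 at -0.25, Psmd2 at 0.04, Psmd7 at 0.49 and Psme3ip1 at 0.23. With probe sets averaged Psma1 was at 0.06, Psma3 and Psmd9 at 0.01 and Psmd7 at 0.15. With x, s and a suffixes dropped, Psma3 was at 0.34, Psma5 at 0.09, Psmd13 at -0.30 and Psmf1 at -0.03. Near 0, Psma8 was at 0.00 with offset 1 and with quantile normalization and at 0.01 with array weights, and without 1 array Psma8 lay between -0.02 and 0.02, Psmb4 reached 0.00 and Psmd7 0.01. Leaving out dim genes removed Psma8 and Psmb11. Genes near the floor, where the offset of 16 understates change, cannot be measured well.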
